A study of Mus musculus with 6 samples.

Results

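The sites described here are the accessible sites nearest to the centromeres of the mouse autosomes. They were chosen by position alone, as every site on chromosomes 1 to 19 of the mm10 assembly that ended at or before 6 Mb. No measured value enters that rule. The rule took 5385 of 229903 sites in the table, or of 225604 on the autosomes, and 56.5 Mb of sequenced bases lay in the stretch. The 9497 sites that lay between 6 and 12 Mb served as the neighbouring comparison, and the 210720 sites beyond 12 Mb were the remainder.

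Chromatin accessibility was measured by ATAC-Seq, in which the Tn5 transposase inserts sequencing adapters into open DNA of isolated nuclei. The samples were primary mouse embryonic fibroblasts (pMEFs) on a C57bl6 background, grown in DMEM with serum and antibiotics. There were 3 HAT1+/+ lines and 3 HAT1-/- lines from embryos whose internal organs had been removed, and the 2 genotypes differed by the loss of the histone acetyltransferase HAT1, which acetylates newly made histone H4. The comparison asked where accessibility depended on HAT1. The deposited levels are 1 mean per genotype and site, as log2 normalized reads, so the spread between the 3 lines of a genotype is not given here. No test between genotypes was made, and every difference below is a description of 2 means. Sites and chromosomes are not replicates of a genotype, and the depth of each line is unknown.

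Mouse autosomes are telocentric, so the centromere lies at the very start of each chromosome, and the assembly leaves that end unsequenced. The missing bases hold satellite arrays packed as constitutive heterochromatin, which carries H3K9me3 and HP1. The first sequenced bases beyond them are the closest approach to pericentromeric chromatin that aligned reads allow. The paper's term HAD, or HAT1-dependent accessibility domain, refers to a long run of sites whose accessibility is lower in HAT1-/- cells, taken from the mean log2 difference of 25 neighbouring sites with a cutoff of -0.58. Only that window mean is used here.

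The cell type label was checked at the strongest site within 3 kb of a transcription start of marker genes. The 12 fibroblast markers had a median HAT1+/+ level of 160 normalized reads and a range of 36.0 to 626, and in HAT1-/- the median was 168 and the range 39.9 to 648. The 11 markers of blood, endothelium and epithelium had a median of 27.5 reads in HAT1+/+, from 8.28 to 73.0, and of 30.3 in HAT1-/-, from 10.1 to 93.1. The 2 ranges overlapped, and none of the 11 lacked a site. Cd68, Tek and Cdh5 had the highest HAT1+/+ levels among the 11. At the start of Hat1 itself, on chromosome 2 outside the stretch, the site had 7.69 in HAT1+/+ and 7.90 in HAT1-/- on the log2 scale, and which bases the HAT1-/- allele lacks was not used here, so this does not check the genotype labels.

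The following sequences, read from the plus strand of GRCm38 (mm10), show the kinds of member on which the description turns. They are a member inside a tandem repeat, the one member of chromosome 14, the members with the lowest 2 differences among well-covered members, and the promoter sites of 2 genes typical of fibroblasts. Members wider than 240 bases are shown by their central 240 bases. Capitals mark a match on either strand to the AP-1 sequence TGANTCA, the CCAAT box, the GC box GGGCGG or the TEAD sequence GGAATG, and matches of different motifs may share bases.
Chromosome 9 repeat member, chr9:3002067-3002215: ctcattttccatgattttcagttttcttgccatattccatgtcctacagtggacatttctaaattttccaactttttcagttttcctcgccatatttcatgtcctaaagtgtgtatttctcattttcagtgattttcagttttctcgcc
Chromosome 14 member, chr14:3049111-3049209: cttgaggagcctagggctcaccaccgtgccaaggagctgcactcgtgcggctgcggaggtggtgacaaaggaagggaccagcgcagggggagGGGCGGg
Chromosome 9 intergenic member, lower in HAT1-/-, chr9:5901082-5901321: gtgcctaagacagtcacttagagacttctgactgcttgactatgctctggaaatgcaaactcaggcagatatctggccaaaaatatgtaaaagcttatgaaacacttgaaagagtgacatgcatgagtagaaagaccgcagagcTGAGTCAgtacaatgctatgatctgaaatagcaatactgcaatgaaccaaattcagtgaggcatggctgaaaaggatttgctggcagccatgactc
Dync1i1 intronic member, lower in HAT1-/-, chr6:5803053-5803292: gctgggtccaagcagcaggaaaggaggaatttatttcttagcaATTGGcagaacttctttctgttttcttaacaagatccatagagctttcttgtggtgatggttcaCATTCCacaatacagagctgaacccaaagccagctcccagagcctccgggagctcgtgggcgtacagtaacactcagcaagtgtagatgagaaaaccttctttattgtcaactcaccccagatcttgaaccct
Col1a2 promoter member, chr6:4505435-4505674: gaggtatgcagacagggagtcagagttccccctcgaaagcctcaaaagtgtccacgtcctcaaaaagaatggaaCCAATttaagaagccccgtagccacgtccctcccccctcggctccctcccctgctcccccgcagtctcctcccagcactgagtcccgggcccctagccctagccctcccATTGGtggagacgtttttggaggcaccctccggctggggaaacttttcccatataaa
Klf6 promoter member, chr13:5861211-5861450: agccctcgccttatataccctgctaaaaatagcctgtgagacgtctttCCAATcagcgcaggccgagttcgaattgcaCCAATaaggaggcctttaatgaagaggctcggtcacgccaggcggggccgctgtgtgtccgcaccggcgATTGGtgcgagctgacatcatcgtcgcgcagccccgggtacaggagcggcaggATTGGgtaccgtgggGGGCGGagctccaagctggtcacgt

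The members were spread unevenly over the chromosomes. Over the whole stretch there were 95.3 sites per Mb of sequenced bases, beside 83.6 in the next 6 Mb and 94.7 beyond 12 Mb. Chromosome 11 was the densest, with 541 members at 187 per Mb, followed by chromosome 19 with 495 at 165 per Mb and chromosome 17 with 439 at 146 per Mb. Chromosomes 1, 3 and 9 were sparse, with 103, 80 and 74 members and densities of 34.3, 26.7 and 24.7 per Mb. Chromosome 14 had 1 member, or 0.333 per Mb. The members were denser than the next 6 Mb on 12 of the 18 chromosomes with at least 5 members and sparser on 6. The mean of the 18 paired differences was 16.5 sites per Mb with an SD of 40.8, so the mean difference was smaller than its spread.

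**Figure D1:**
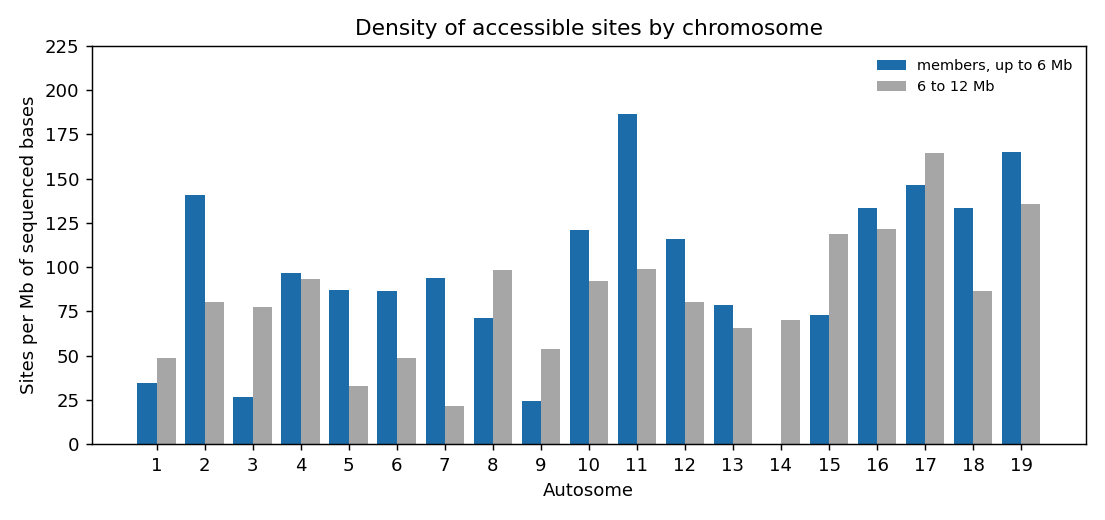
Sites per Mb of sequenced bases on each autosome, for members (blue bars) and for the 6 to 12 Mb stretch (grey bars). Chromosomes 1, 3, 9 and 14 are the sparse ones, and members of chromosome 11 reach 187 per Mb.

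A larger share of members than of their neighbours lay near transcription starts. A promoter, defined as within 3 kb of a GENCODE transcription start, held 1764 members, or 32.8%, beside 23.5% of sites from 6 to 12 Mb and 28.3% of those beyond. Introns held 33.2% of members, exons 3.18%, and 30.8% were intergenic, beside 39.0%, 2.61% and 34.9% in the next 6 Mb. Over the chromosomes with at least 5 members, the promoter share was lowest on chromosome 18, with 64 of 400 members, and highest at 62.3% on chromosome 7, after 59.4% on chromosome 19. Of 635 protein-coding genes that started in the stretch, 518 had a member within 3 kb of a start. On chromosome 14, 63 protein-coding genes started in the stretch and 1 had a member.

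Site width and base composition varied little between stretches. The median member was 256 bases wide with a GC content of 49.7%, beside 251 bases and 48.9% in the next 6 Mb. In the central 200 bases, TGANTCA, the sequence recognized by AP-1, was found in 20.9% of members, in 23.9% of the next sites and in 22.9% of all autosomal sites. CCAAT was found in 22.1% of members and 21.7% of all autosomal sites, and GGAATG, recognized by TEAD factors, in 15.1% and 15.5%. GGGCGG, the GC box, was found in 8.71% of members, in 6.70% of the next sites and in 8.61% of all autosomal sites. The 469 members with GGGCGG had median levels of 53.8 reads in HAT1+/+ and 50.9 in HAT1-/-, while the 4916 without it had 13.5 and 13.4. Levels are per site, and members with GGGCGG were also wider, with a median of 471 bases beside 248. Of those with it 73.8% were promoter members, beside 28.8% of those without. A match describes the letters of a site and does not show that a factor was bound.

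Sequence that recurs in the genome was concentrated at the very start of the stretch. A member was called recurrent where at least 50% of its 31-base words occurred more than once in the assembly. This held for 172 members, 3.19%, beside 412 sites, 4.34%, in the next 6 Mb, where 321 of the 412 lay on chromosome 17. In the first 0.5 Mb bin the share was 13.5% and the mean soft-masked share of a site was 20.9%, while in the bin from 5 to 5.5 Mb they were 0 and 11.1%. By number, recurrent members were most frequent on chromosome 4 with 30, chromosome 16 with 29 and chromosome 6 with 22, and by share of a chromosome's members on chromosome 9, with 12 of 74, 16.2%. A read that lies wholly within recurring words can have more than 1 possible position. The 31-base words do not show how many reads did, and how the alignments treated such reads is not given in the sources used here.

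The recurrent members were also the faintest. Their median level was 2.97 reads in HAT1+/+ and 3.34 in HAT1-/-, beside 14.7 and 14.6 in the 4309 members with no recurring word. Recurrent sites of the next 6 Mb were fainter still, at 1.79 and 1.73 reads. The lowest values in the whole table were -0.61 for HAT1+/+ and -0.43 for HAT1-/- on the log2 scale, and a site listed at both has a difference of 0.18 whatever its accessibility. Of the members, 24 were listed at both lowest values and 45 at 1 or both. Among the 134 recurrent members above the lowest value in both genotypes, the median difference was 0.04. Of these, 6 were lower by a log2 of 1 or more, 4.48%, and 14 were higher by as much, 10.4%. Over all sites the shares were 5.11% and 2.82%, and among all members under 8 reads they were 8.53% and 10.1%.

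A block of tandem repeats opened chromosome 9. Over the first 38000 sequenced bases of that chromosome, a shift of 234 bases matched 71.2% of bases, while the median of the other shifts from 100 to 400 bases was 31.2%. The major satellite of mouse pericentromeres has a repeat unit of 234 bases. This block held 12 members with a GC content of 33.2% to 35.8%, and in 10 of them every 31-base word recurred. Their HAT1+/+ levels ran from -0.61 to 3.60 and their HAT1-/- levels from -0.43 to 3.39 on the log2 scale, and they summed to 47.9 normalized reads in HAT1+/+ and 53.7 in HAT1-/-. The difference was above 0 in 9 and below 0 in 3, with 3 listed at a lowest value. The member printed above was the strongest of them, at 3.60 in HAT1+/+ and 3.39 in HAT1-/-.

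Levels in the 2 genotypes were close over the stretch as a whole. The median member stood at 3.85 in HAT1+/+ and 3.84 in HAT1-/- on the log2 scale, or 14.4 and 14.3 normalized reads. The next 6 Mb had 3.79 and 3.72, and the sites beyond had 3.87 and 3.79. The median difference, HAT1-/- minus HAT1+/+, was -0.03 in members, -0.05 in the next 6 Mb and -0.06 beyond. In normalized reads summed over sites, HAT1-/- had 95.8% of the HAT1+/+ total in members and 94.8% in the next 6 Mb. The middle 90% of member differences lay between -0.87 and 0.84, and 2844 members were below 0 while 2488 were above.

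Large losses of accessibility made up a smaller share of members than of the table as a whole. In HAT1-/-, 195 members, 3.62%, were lower by a log2 of 1 or more, beside 5.11% of all 229903 sites and 5.21% of the sites from 6 to 12 Mb. In the other direction, 179 members, 3.32%, were higher by as much, beside 2.82% of all sites and 2.76% of the next 6 Mb. A window mean below -0.58, the level used for HADs, was found for 4 members, 0.0743%, beside 2.26% of all autosomal sites and 1.84% of the next 6 Mb, where 175 sites had one. The share with large losses was smaller in members than in the next 6 Mb on 11 of 18 chromosomes and larger on 7. The mean paired difference was -1.33 percentage points with an SD of 4.79 over chromosomes, so the difference was smaller than its spread.

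**Figure D2:**
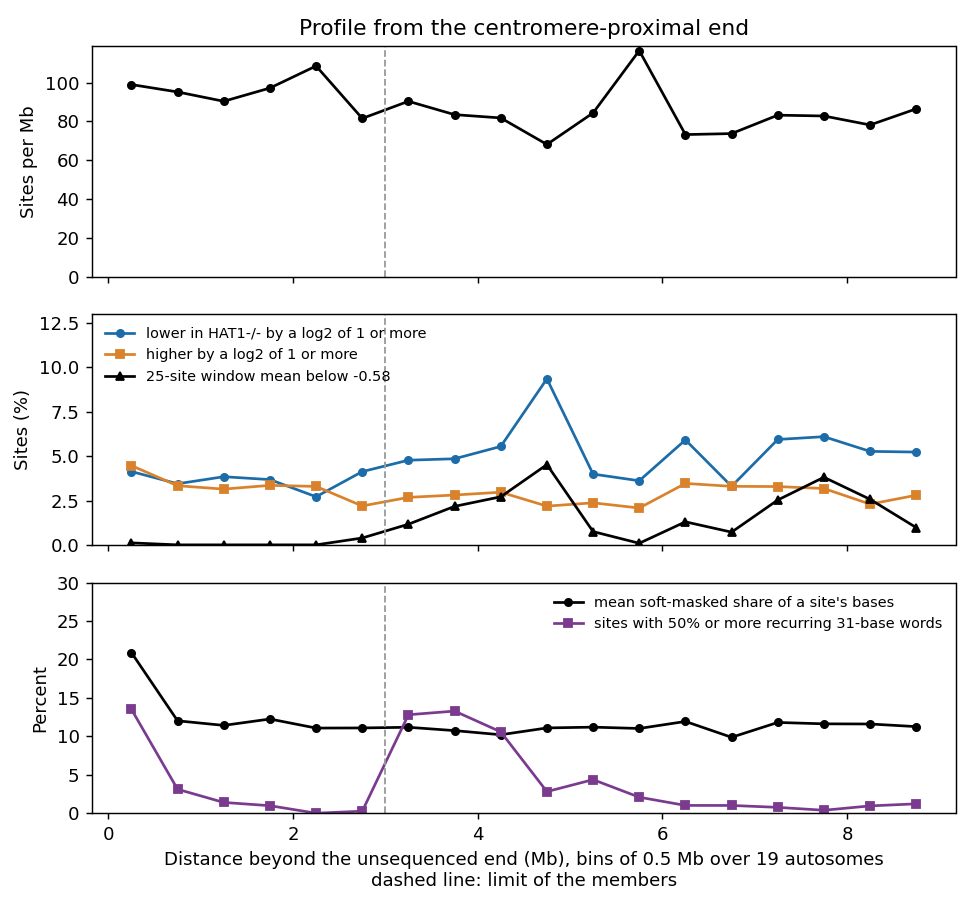
Values in 0.5 Mb bins over 19 autosomes against distance beyond the unsequenced end, with a dashed line at the limit of the members. The top panel gives sites per Mb, the middle panel the percentage of sites lower or higher in HAT1-/- by a log2 of 1 or more and of sites with a 25-site window mean below -0.58, and the bottom panel the soft-masked share and the share of recurrent sites. The window share is at most 0.387% in every member bin and reaches 4.52% beyond the line, and recurrent sites are frequent both in the first bin and in the 3 bins after the line.

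The lower share in members was present among well-covered sites. Among sites with a mean of 16 to 64 normalized reads over both genotypes, 30 of 1759 members, 1.71%, were lower by a log2 of 1 or more. The next 6 Mb had 139 of 3163, 4.39%, and all autosomal sites had 3.53%. At 64 reads or more the shares were 0.298% of 671 members, 1.37% of 877 sites in the next 6 Mb and 0.874% of all autosomal sites. Under 8 reads they were 8.53%, 8.31% and 9.71%. In that range 10.1% of members were higher by as much, beside 7.13% in the next 6 Mb and 8.13% of all autosomal sites. At 16 reads or more, the member share of large losses was smaller on 13 of 18 chromosomes, and the shares of large gains were 0.370% in members and 0.396% in the next 6 Mb.

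**Figure D3:**
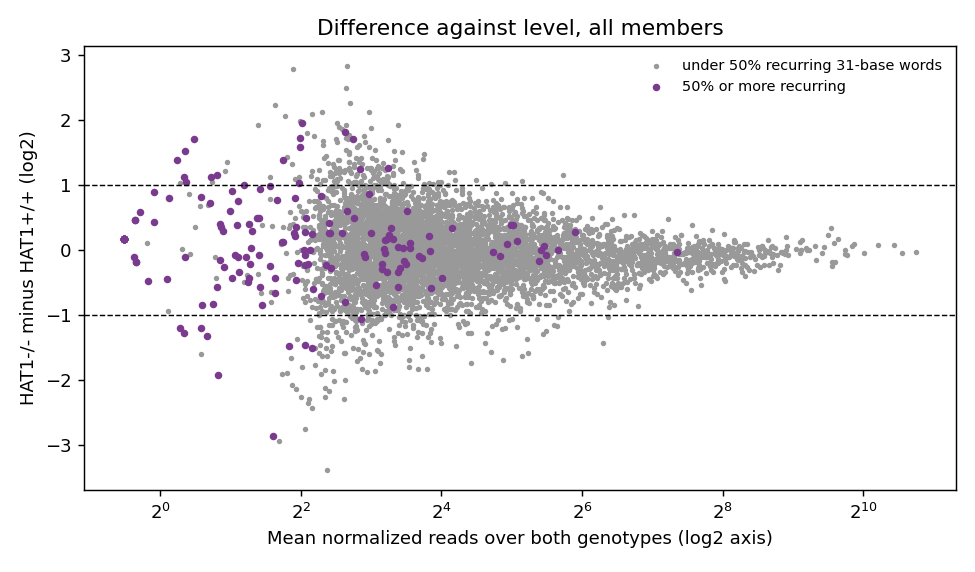
Log2 difference between genotypes against mean normalized reads for all 5385 members, with dashed lines at differences of -1 and 1. The scatter narrows as the level rises, and the 172 recurrent members (purple) lie mostly at the low end, where 24 coincide at the lowest values with a difference of 0.18.

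The share with large losses differed between annotation classes. Large losses were found in 40 of 1764 promoter members, 2.27%, in 64 of 1789 intronic members, 3.58%, and in 89 of 1661 intergenic members, 5.36%. In each of these classes the share in the next 6 Mb was higher, at 3.27%, 5.42% and 6.40%. Over all autosomal sites the shares were 3.10%, 5.12% and 7.02%. Promoter members were also stronger, with medians of 21.4 reads in HAT1+/+ and 20.2 in HAT1-/-, beside 12.2 and 12.3 for intergenic members.

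Chromosomes 1 and 9 departed from the other autosomes. On chromosome 1, 15 of 103 members, 14.6%, were lower by a log2 of 1 or more, and the median levels were 3.57 in HAT1+/+ and 3.36 in HAT1-/-. On chromosome 9, 8 of 74 members, 10.8%, were lower, with medians of 3.70 and 3.42. The other autosomes together had 172 of 5208, 3.30%. At 16 reads or more the counts were 2 of 28 members on chromosome 1, 7.14%, and 2 of 31 on chromosome 9, 6.45%, beside 32 of all 2430 such members, 1.32%. Chromosome 3 was as sparse as these 2, yet 3 of its 80 members, 3.75%, were lower and its medians were 3.39 and 3.40. At 16 reads or more, 1 of its 25 members was lower, 4%, so at that level its contrast with chromosomes 1 and 9 rests on very few sites. Density and the share of large losses had a Spearman rho of -0.56 over the 18 chromosomes, which share the same 2 genotype means and differ in their number of sites.

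Within chromosome 1 the lowest median differences lay at both ends of the stretch. The 18 members between 3 and 4 Mb, the region of Xkr4, had a median difference of -0.62 and kept 64.6% of the summed HAT1+/+ reads, and 6 of them were lower by a log2 of 1 or more. The 54 members between 4 and 5 Mb had a median difference of 0.03, with 4 lower by as much, and the 31 between 5 and 6 Mb one of -0.34, with 5 lower. On chromosome 9 the 26 members between 5 and 6 Mb had a median of -0.47 and kept 70.1% of reads, and 6 were lower. Away from promoters the median difference was -0.27 for 64 members of chromosome 1 and -0.27 for 43 of chromosome 9. For promoter members it was -0.08 for 39 on chromosome 1 and 0 for 31 on chromosome 9. These 31 include the repeat member printed above, from the block of 12 members that opens chromosome 9. That block had a median difference of 0.315, with 3 members at a lowest value. The promoter median without repeat members was not computed.

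Members of chromosomes 17 and 18 had the highest median differences. Both had a median difference of 0.06, with medians of 3.62 in HAT1+/+ and 3.71 in HAT1-/- on chromosome 17 and of 3.60 and 3.70 on chromosome 18. Summed reads in HAT1-/- were 102% and 101% of HAT1+/+. The median level was also slightly higher in HAT1-/- than in HAT1+/+ on chromosomes 2, 3, 4, 5, 6, 12 and 16. The median difference was below 0 on 15 of 18 chromosomes, and chromosome 3, at 0.04, was the third above it. Chromosome 19 had the highest medians, 4.53 and 4.51, and chromosome 7 followed with 4.22 and 4.14.

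**Figure D4:**
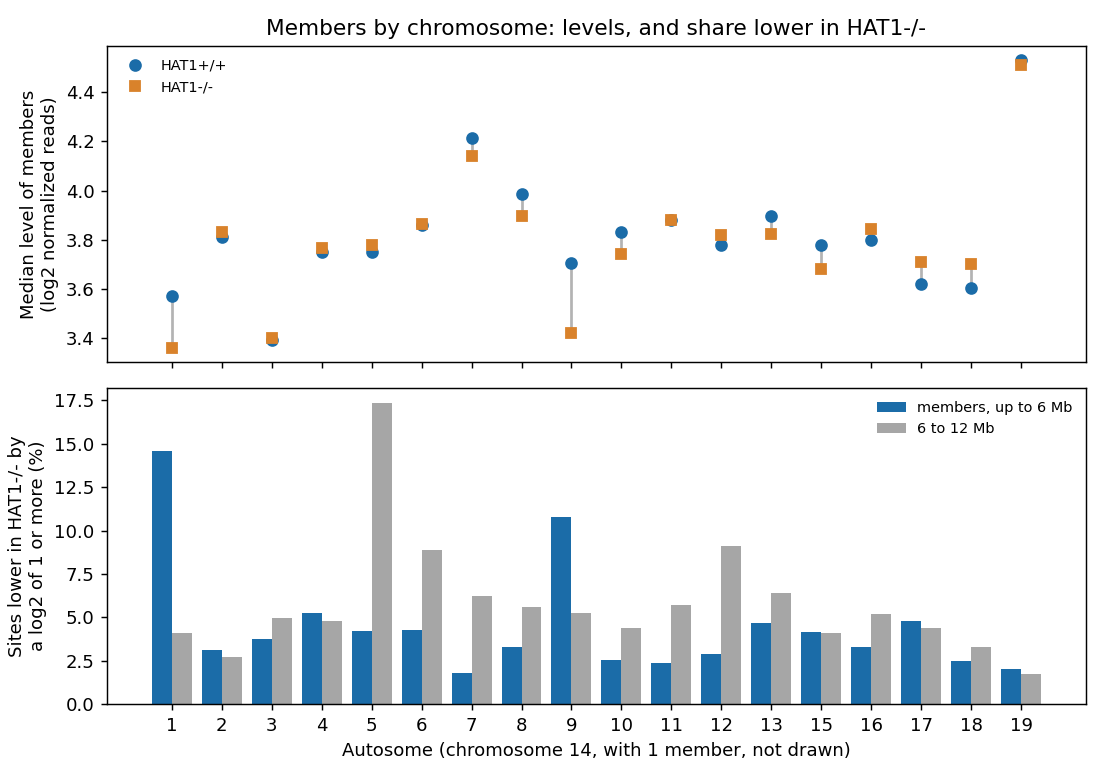
Upper panel, median log2 normalized reads of members in HAT1+/+ (circles) and HAT1-/- (squares) on each chromosome with at least 5 members. Lower panel, percentage of sites lower in HAT1-/- by a log2 of 1 or more, for members (blue bars) and the 6 to 12 Mb stretch (grey bars), where chromosomes 1 and 9 stand highest among members at 14.6% and 10.8%.

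On chromosome 5 the contrast ran across the 6 Mb line. Of its 261 members 4.21% were lower by a log2 of 1 or more, against 17.3% of its sites from 6 to 12 Mb, and at 16 reads or more the counts were 0 of 112 members and 13 of 83 sites. Windows below -0.58 were found in the next 6 Mb on 8 of 19 chromosomes and among members on 2 of 18. The 2 stretches differ in length, with 113.6 and 56.5 Mb of sequenced bases, so these counts are not on equal terms. The first such window started at 6.79 Mb on chromosome 5, at 6.84 Mb on chromosome 13 and at 6.94 Mb on chromosome 4. Over all 19 autosomes the median start was 13.2 Mb, and the farthest was 47.5 Mb on chromosome 10.

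The 4 members with a window mean below -0.58 were at the edges of the stretch. The first member of chromosome 1, chr1:3444925-3445159 in an intron, had levels of 3.97 and 3.28 in HAT1+/+ and HAT1-/- and a window mean of -0.65, taken over fewer sites because no site lies before it. The other 3 were the last members of chromosome 12, between 5943609 and 5976217, and their windows reached past 6 Mb. Their own differences were 0.37, -0.19 and 0.36.

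Chromosome 14 had a single member, at chr14:3049111-3049209, 76 bases from a start of the predicted gene Gm2897. It stood at 2.51 in HAT1+/+ and at the lowest listed value in HAT1-/-, so its difference is not given as a fold. The next site on that chromosome, chr14:6108577-6108847 at a start of the predicted gene Gm3468, had 5.61 in HAT1+/+ and 2.54 in HAT1-/-, a difference of -3.07. The 2 sites had GC contents of 68.7% and 68.3%. In the site outside, 64.3% of 31-base words recurred, beside 15.9% in the member.

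The most centromere-proximal members of the 19 chromosomes had a median below that of all members in both genotypes. It was 2.98 in HAT1+/+ and 2.77 in HAT1-/-, with HAT1+/+ levels from -0.61 to 4.43, and 10 were below 0 in difference and 9 above. In 8 of the 19 at least 50% of the 31-base words recurred. The highest of them, chr8:3187486-3187743 in an intron of Insr, the insulin receptor gene, had 4.43 and 4.06. The one on chromosome 2, chr2:3069101-3069243, had 2.83 and 1.06. On chromosome 6 the first member was listed at the lowest value in both.

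The last members before the 6 Mb limit had medians of 2.90 in HAT1+/+ and 2.70 in HAT1-/- over 19 chromosomes, and the first sites after it had 3.78 and 3.35. The site after the limit was higher than the one before it on 12 of 19 chromosomes in HAT1+/+ and on 14 of 19 in HAT1-/-. All of these are single sites, and their median widths were 161 bases before the limit and 256 after it. On chromosome 14 the site before the limit was its only member, chr14:3049111-3049209, far from the limit and at the lowest listed value in HAT1-/-. Over all sites the order was reversed, with medians of 4.05 and 3.99 from 5.5 to 6 Mb and of 3.81 and 3.70 from 6 to 6.5 Mb. In each set of 19 single sites, the difference between genotypes was below 0 for 11 and above it for 8. Examples just inside are chr17:5997424-5998116 near a start of Synj2, at 6.06 and 4.91, and chr1:5917096-5917243 near a start of the neuropeptide receptor gene Npbwr1, at 3.52 and 2.46. In the other direction, chr15:5951005-5951165 had 1.77 and 3.52, and chr18:5989629-5990313 had 8.48 and 8.53. Just outside, chr11:6000267-6000831 at a start of Camk2b, a calmodulin-dependent kinase gene, had 7.05 and 6.74.

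The strongest members were promoters with nearly equal levels in both genotypes. The site chr8:4677301-4678927, at a start annotated as Gm7461, had 10.76 in HAT1+/+ and 10.74 in HAT1-/-. The site chr8:4165849-4166580 at Evi5l had 10.57 and 10.53, and chr9:4309133-4310165 at Aasdhppt, whose product modifies acyl carrier proteins, had 10.40 and 10.48.

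Among the 2430 members with a mean of 16 reads or more, the lowest 5 differences lay between -1.74 and -1.57. The intergenic site chr9:5901041-5901362, whose centre is printed above with 1 TGANTCA match, had 5.05 in HAT1+/+ and 3.31 in HAT1-/-. The site chr6:5802808-5803537, in an intron of Dync1i1, a dynein subunit gene, had 5.49 and 3.80. The third, chr17:3643556-3643971 in an intron of the NADPH oxidase gene Nox3, had 5.74 and 4.11. The other two were intergenic chr4:4509203-4509730, at 5.82 and 4.24, and chr7:4911567-4911903 near a start of Gm44983, at 5.29 and 3.72. They lay on 5 different chromosomes. The limit of 16 reads applied to the mean over both genotypes, so a site could lie below it in 1 of them. The chromosome 9 site did, with 33.1 reads in HAT1+/+ and 9.92 in HAT1-/-, while the chromosome 4 site, with 56.5 and 18.9, did not.

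The highest 5 differences were smaller, between 1.08 and 1.20. Intergenic chr18:5143606-5143815 had 3.39 in HAT1+/+ and 4.59 in HAT1-/-, and chr18:4873037-4873530, 47010 bases from a start of Svil, had 5.04 and 6.20. The sites chr8:3660977-3661245 and chr7:4120954-4121250 each had a difference of 1.08, from 3.85 to 4.93 and from 3.55 to 4.63.

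Genes that start in the stretch were described by the strongest site within 3 kb of a start. For the 518 protein-coding genes with such a member the median level was 161 reads in HAT1+/+ and 147 in HAT1-/-, with a median difference of -0.08. Of these 4 were lower by a log2 of 1 or more, 0.772%, and 2 were higher, 0.386%. The 4 gene lists below, drawn up with earlier results known, are read beside these values, and in all of them no gene passed a log2 of 1 in either direction.

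Of the 20 mesenchymal and fibroblast genes, 18 started in the stretch and all had a site. Their median was 7.44 in HAT1+/+ and 7.38 in HAT1-/-, and 12 were below 0 in difference, 5 above and 1 at 0. Col1a2, encoding a chain of type I collagen, had 7.45 and 7.56, and its printed centre holds 2 CCAAT matches. Klf6, encoding a zinc-finger factor, had 9.11 and 9.12, with 4 CCAAT matches and 1 GGGCGG match in its printed centre, and Plag1, another zinc-finger factor gene, had 9.74 in both. Bambi, encoding a decoy receptor of TGF-beta signalling, had 8.79 in HAT1+/+ and a difference of 0.21, and Zeb1, a regulator of mesenchymal identity, had 6.09 and 5.86. Tfpi2, encoding a protease inhibitor, had the widest difference of the list, from 5.06 to 5.87, and Akap12, encoding a kinase anchoring protein, the lowest, from 6.86 to 6.56.

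The 13 chromatin and DNA modifying genes all started in the stretch, and their differences ran from -0.23 to 0.15. Their median was 7.58 in HAT1+/+ and 7.57 in HAT1-/-, with 9 differences below 0 and 4 above. Dnmt3a, the de novo DNA methyltransferase gene, had 7.12 and 6.95, and Kmt5b, which encodes a methyltransferase of histone H4, had 7.24 and 7.13. The acetyltransferase genes Kat5 and Crebbp had 7.29 and 7.12, and 7.16 and 7.02. Kdm2a, encoding a histone demethylase, had 8.10 and 8.11, and Mus81, encoding a DNA repair nuclease, had the lowest difference, from 8.77 to 8.54.

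The neural, endocrine and sensory genes had the lowest median level and the lowest median difference of the 4 lists. Of 17 genes 16 started in the stretch, and 14 of these had a site. Rp1, a photoreceptor gene, and Oprk1, an opioid receptor gene, both on chromosome 1, had none. The median was 5.57 in HAT1+/+ and 5.43 in HAT1-/-, 12 differences were below 0 and 2 above, and the median difference was -0.25. Gria4, encoding a glutamate receptor subunit on chromosome 9, had 4.53 and 3.54, the lowest difference at -0.99. Hnf4g, a nuclear receptor gene, had 3.71 and 2.98, the neuropeptide gene Vip had 4.15 and 3.49, and Xkr4 had 6.69 and 6.13. Gucy1a2, encoding a guanylate cyclase subunit, was the strongest of the list at 8.59 and 8.37, and Pomc, the gene of the hormone precursor proopiomelanocortin, had 3.21 and 3.40.

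The 18 housekeeping genes all started in the stretch and had medians of 256 normalized reads in HAT1+/+ and 231 in HAT1-/-. Their differences ran from -0.42 to 0.14, with 12 below 0, 5 above and 1 at 0. Trap1, encoding a mitochondrial chaperone, had 7.87 and 7.45, and Timm44, encoding a part of the mitochondrial import machinery, had 8.02 and 7.68. On chromosome 1, where large losses were most frequent among members, Tcea1, a transcription elongation factor gene, had 9.68 and 9.50 and Lypla1, a thioesterase gene, had 7.59 and 7.73. The neural, endocrine and sensory genes with a site thus had a median difference of -0.25, beside -0.11 for the mesenchymal, -0.10 for the housekeeping and -0.05 for the chromatin genes.

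**Figure D5:**
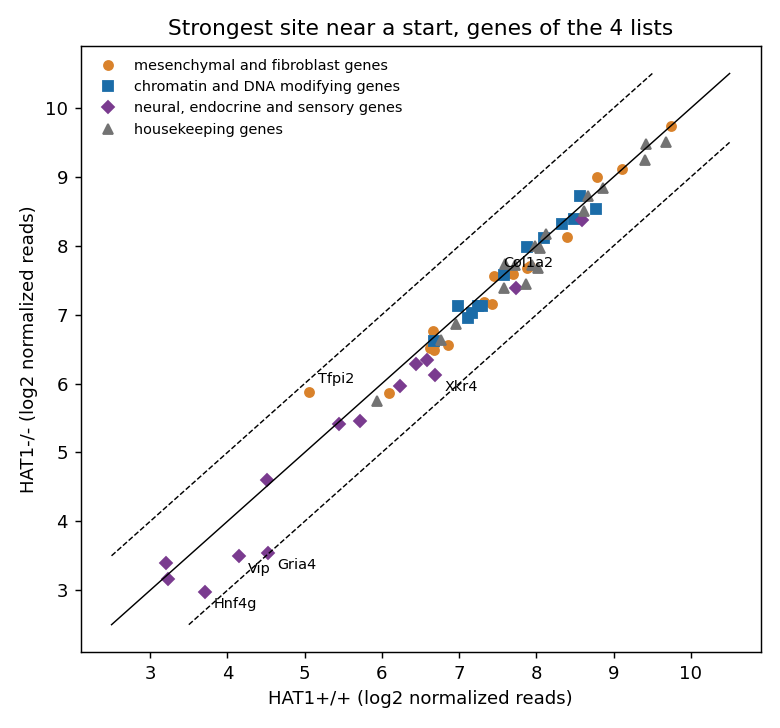
Log2 normalized reads in HAT1-/- against HAT1+/+ at the strongest site within 3 kb of a start, for the 63 genes of the 4 lists that start in the stretch and have a site. The solid line marks equal levels and the dashed lines a log2 difference of 1, and Gria4 lies nearest to a dashed line at -0.99.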

How the data were processed

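ATAC-Seq of 3 HAT1+/+ and 3 HAT1-/- pMEF lines was used. Per the study's methods and the submitters' processing notes, the authors processed reads with the ENCODE pipeline, aligned them to mm10 with Bowtie2, called peaks with MACS2 and compared genotypes with DiffBind 2.14.0. The authors deposited levels as log2 mean normalized reads per site and genotype. The deposited fold changes, p-value and FDR columns hold the authors' own comparison and were not used, and neither was the level over all lines. The library normalization, the rule that joined peaks into sites and the treatment of reads with several alignments are not given in the sources used here. Depth per line is unknown.

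Differences were HAT1-/- minus HAT1+/+ on the log2 scale, and a site was counted as lower or higher at a log2 of 1 or more. Window means took 25 sites centred on each site, fewer at chromosome ends. Features came from GENCODE vM21 and sequence from GRCm38, the assembly of mm10, after a check that the sites fitted its chromosomes. Recurring words were counted on both strands of the assembly, and the scripts were tested on simulated data. Densities used bases that are not N. Chromosomes with at least 5 members entered comparisons over chromosomes.

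The sites named were the first and last member of each chromosome, the first site after 6 Mb, the 3 strongest members, the lowest 5 and highest 5 differences among members with at least 16 reads, members in low windows, and the strongest site of each listed gene. Among the highest 5 differences, 1 site is not reported here. The stretch that defines the members, though set by position, and the gene lists were chosen with earlier results of these data known. Python 3.11.15, numpy 2.4.6, pandas 2.3.3, scipy 1.17.1, numba 0.67.0 and matplotlib 3.10.9 were used.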

Additional observations from a re-analysis of the deposited data

How the results depend on the processing

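No paired analysis was possible because the values come from genotype means and no test was made, and for the same reason leaving out each replicate was not run. Precision is limited by how many reads fall in a site. A value was read as moved where it shifted by more than its SD over 18 chromosomes, a wide measure.

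With sites of 8 or more reads, the median member level was 4.28 in HAT1+/+ and 4.22 in HAT1-/-, the share higher by a log2 of 1 or more was 1.45%, and its difference from the next 6 Mb turned to -0.0022 percentage points. Per kb of width the median levels were 5.88 and 5.86. With a limit of 0.58, 12.6% of members were lower and 11.03% higher. With windows of 11 sites, 0.520% of members had a low window.

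The median HAT1+/+ level of members minus that of the comparison, 0.06, turned to -0.02 against sites beyond 12 Mb, to -0.03 further than 3 kb from a start and to -0.0064 as a mean over chromosomes. The difference of median differences, 0.02, became 0 without chromosome 17. The share with CCAAT minus that of the next 6 Mb was -0.53 percentage points and turned to 0.66 in whole sites. The higher density of members, 11.7 sites per Mb, fell to 0.66 against sites beyond 12 Mb and to 0.15 further than 3 kb from a start. The share of large losses in members stayed below that of the comparison under each alternative tried, with differences of -1.33 to -2.25 percentage points. The causes were not tested. Leaving out sites at a lowest listed value, chosen after seeing the data, changed no direction.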

Other observations

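Of the 518 protein-coding genes with a member within 3 kb of a start, 6 had a difference of a log2 of 1 or more, and they are named here after their values were seen. Gm2897 on chromosome 14 was at the lowest listed value in HAT1-/-. Cd209a, a lectin gene of the immune system, had 3.55 in HAT1+/+ and 1.96 in HAT1-/-, and Ovol1, an epithelial zinc-finger factor gene, had 3.73 and 2.52. Sec14l4, a lipid-binding protein gene, had 2.20 and 3.35. The related genes Mterf1a and Mterf1b, both on chromosome 5 and both linked to mitochondrial transcription, had 1.65 and 3.36 for the first and 3.23 with a difference of -1.09 for the second. Related copies can share reads, so the split between these is uncertain, and each of the 6 genes stood at 3.73 or less on the log2 scale in both genotypes.

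The comparison stretch of chromosome 17 held many recurrent sites. Between 6 and 12 Mb, 321 of its 980 sites, 32.8%, had at least 50% recurring words, with medians of 0.60 in HAT1+/+ and 0.50 in HAT1-/-, and 113 of the 321 were listed at the lowest value in both.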
